A study of Mus musculus with 40 samples.

Results

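This account covers 8 mouse genes that encode the intermediate filaments of neurons and glia, Nefl, Nefm, Nefh, Ina, Prph, Vim, Nes and Gfap, in 40 RNA sequencing libraries. The genes were taken by name as a protein family, and all 8 of them were found among the 55487 genes in the count table. The study derived motor neurons (ES-motor neurons) and astrocyte-like cells (ES-astrocytes) from mouse embryonic stem cells that carry eGFP under the Hb9 promoter, and asked how inflammatory stimulation of the astrocytes bears on motor neurons plated on them. ES-astrocytes matured with forskolin were left unstimulated or received 1 of 4 stimuli for 24 h, eGFP-positive ES-motor neurons were placed on top, and the co-culture was then separated by cell sorting into lysates of about 200 cells. The stimuli were IL-1α with TNF-α, C1Q with C5, IL-1β with IL-6, and TGF-β2. Polyadenylated RNA was amplified as full-length cDNA and fragmented with Tn5 transposase.

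Each of the 2 cell types thus had 5 groups of 4 libraries, namely control and the 4 stimuli, with replicates lettered A to D. The groups limit what can be read from them in several ways. All cells came from 1 transgenic line and a replicate was 1 vial of it, ES-motor neurons were defined by reporter fluorescence, and ES-astrocytes were the eGFP-negative fraction, which would also hold any neuron that did not light up. The ES-motor neurons met the stimuli through the treated ES-astrocyte layer, whose medium was kept. The paper names a small risk of leftover stimuli in that medium, which it holds to be likely negligible. Control and IL-1α with TNF-α libraries carried plate index 1 in the authors' sample sheet and the other 3 stimuli plate index 2, so that plate and stimulus cannot be told apart for those 3. The second index primer was S337 or S339 in every ES-astrocyte library and S338 or S340 in every ES-motor neuron library. Primer and cell type therefore cannot be told apart.

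Intermediate filaments are rope-like polymers of coiled-coil proteins that give cells mechanical strength, and each cell type builds them from its own subset of family members. Neurons use neurofilament proteins, which fill axons and set their calibre, together with α-internexin and, in motor and peripheral neurons, peripherin. Neural progenitors and young glia build filaments of vimentin and nestin, and astrocytes add glial fibrillary acidic protein as they mature or react to injury.

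Total counts per library ran from 6557 to 19717324, with a median of 2459460. The 20 ES-astrocyte libraries held 1510823 to 16054290 counts and the 20 ES-motor neuron libraries 6557 to 19717324. A library was called shallow when its total lay under 20% of that median, that is under 491892 counts, and 9 libraries were, all of them from ES-motor neurons. They were control replicate C, all 4 libraries of IL-1α with TNF-α, C1Q with C5 replicate A, IL-1β with IL-6 replicates B and D, and TGF-β2 replicate A. C1Q with C5 replicate A is the library of 6557 counts. Levels are given as CPM, that is counts-per-million scaled by edgeR's TMM factors over all 40 libraries, and 3 counts of a gene already stand at 202 CPM in that library. Such floors cover counting error only, since the reads carry no molecular identifiers. The 95% intervals of log2 fold changes come from the edgeR standard error, which includes the spread between replicates.

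Markers were read first, beside the labels. Mnx1, which encodes Hb9 and whose promoter drove the reporter, averaged 3.41 CPM in ES-astrocytes against 1052 CPM in ES-motor neurons. The 7 motor neuron markers, all detected in both cell types, summed to 15.1 CPM at the lowest, 33.7 at the median and 101 at the highest in ES-astrocytes, and to 634, 979 and 4661 CPM in ES-motor neurons. No library of one cell type reached into the range of the other on that sum, to which Mnx1 gave most in ES-motor neurons. The sort selected on the Mnx1 promoter, so neither Mnx1 nor this sum is an independent check of the label. No sum without Mnx1 is given. Lhx3, a motor neuron transcription factor gene of the list, went the other way, with a mean of 11.96 CPM and counts in 18 of 20 ES-astrocyte libraries against 8.83 CPM and 14 of 20 ES-motor neuron libraries.

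At the level of RNA the astrocyte label was met only in part. By staining, the paper reports GFAP, AQP4 and GLT-1 protein in forskolin-treated ES-astrocytes. Protein was not measured in the sorted libraries. The 10 astrocyte markers summed to 624, 1639 and 2809 CPM in ES-astrocytes, against 0, 357 and 732 CPM in ES-motor neurons (lowest, median, highest), and Fabp7, a fatty acid carrier of radial glia and young astrocytes, was the most abundant of them in ES-astrocytes with a mean of 1426 CPM. Aqp4, the water channel of astrocyte endfeet, and Aldh1l1, a folate enzyme much used as an astrocyte marker, were at 0 in all 40 libraries. Other genes of the list followed the label. The glutamate transporter gene Slc1a2 averaged 128 CPM in ES-astrocytes against 18.1 CPM in ES-motor neurons, the gap junction gene Gja1 62.1 against 0.162 CPM, Slc1a3 35.4 against 1.18 CPM and Fgfr3 11.4 against 0.476 CPM. In ES-motor neurons the most abundant gene of that list was Sox9, with a mean of 265 CPM against 78.8 in ES-astrocytes. Neuronal transcripts were plentiful on both sides of the sort. The 8 pan-neuronal markers, all with counts in both cell types, summed to 1913, 3007 and 4487 CPM in ES-astrocytes, against 2829, 6338 and 9622 CPM in ES-motor neurons. Stmn2, a microtubule regulator of growing axons and the most abundant of them, averaged 971 and 3153 CPM. In such bulk samples, a smaller number of cells of a type and less RNA per cell cannot be told apart.

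**Figure D1:**
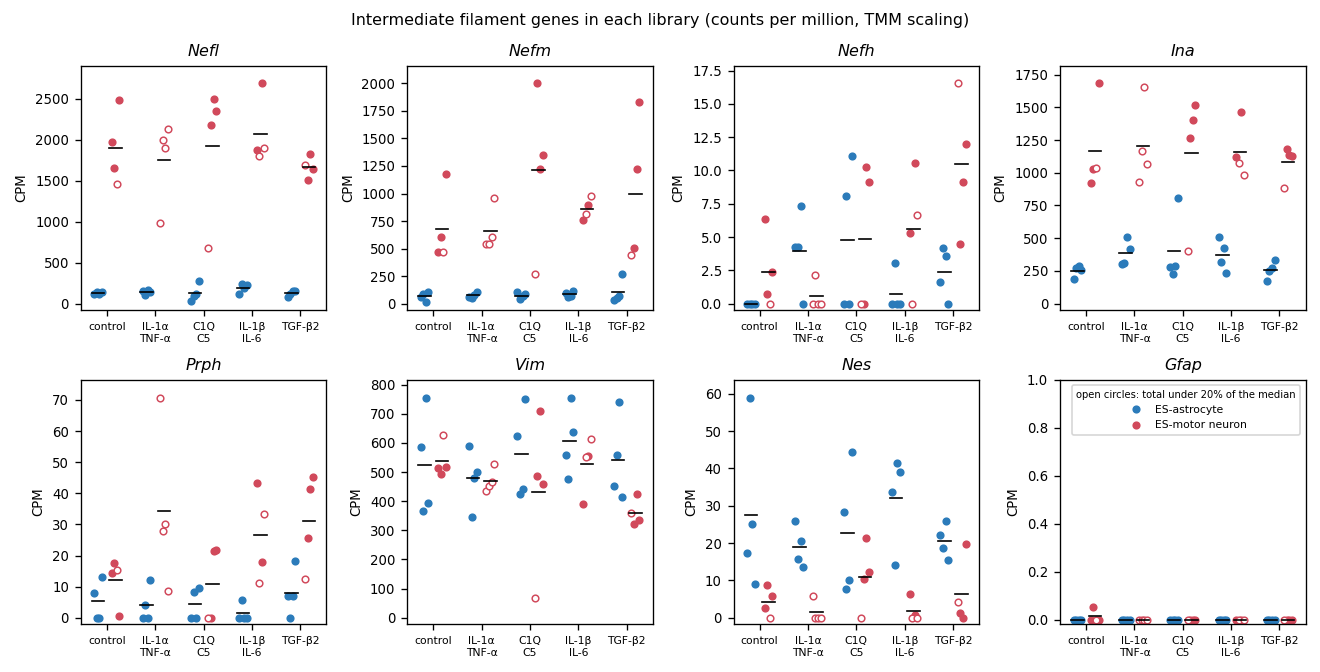
CPM of the 8 genes (vertical axes, each gene on its own scale) in every library, by treatment (horizontal axes) and cell type. Each circle is 1 library, replicates A to D from left to right; open circles are the 9 libraries with totals under 20% of the median, and black lines are group means over 4 libraries. Nefl and Nefm separate the cell types in every treatment, Vim has overlapping ranges in both, and Gfap has 1 count in 40 libraries.

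The control cultures answer the simplest question, which filament genes distinguish the sorted cell types without any stimulus. Nefl, Nefm and Ina were higher in ES-motor neurons, Vim had overlapping levels in both, and Gfap was not detected in ES-astrocytes. A gene was called different when its adjusted p by Benjamini and Hochberg did not exceed 0.05 and it had a log2 fold change beyond 1 in either direction, from edgeR fitted to every gene that passed its filter on low counts. Of the 8 genes 6 passed that filter in the control libraries and 3 were called, all higher in ES-motor neurons. Among all 10199 genes tested, 228 (2.24%) were called, 58 (0.569%) of them higher in ES-motor neurons and 170 (1.67%) lower. A gene that is tested because 1 cell type expresses it is prone to differ, so that the 3 of 6 is given as a description.

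Nefl encodes the light neurofilament subunit, on which the other subunits assemble. Its level was 119, 139, 121 and 141 CPM in ES-astrocyte control replicates A to D and 1977, 1656, 1456 and 2486 CPM in those of the ES-motor neurons. The ES-astrocyte values lay close together, and the lowest ES-motor neuron library stood 10.3 times above the highest ES-astrocyte library. This amounted to a log2 fold change of 3.89 (SE 0.41, 4 libraries a group, adjusted p = 0.000863, edgeR). Nefm, the medium subunit with a long phosphorylated tail, was at 62.6, 90.0, 17.8 and 104 CPM in ES-astrocytes, against 467, 607, 465 and 1177 CPM in ES-motor neurons. Replicate D was the highest in both cell types, and the groups were separated by a factor of 4.48. For Nefm the log2 fold change was 3.32 (SE 0.59, adjusted p = 0.0151).

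Ina encodes α-internexin, a neurofilament partner that appears early in developing neurons. It measured 188, 276, 284 and 255 CPM in ES-astrocytes, against 925, 1027, 1033 and 1683 CPM in ES-motor neurons. Here too replicate D led the ES-motor neurons, while the ES-astrocyte level was already substantial, and no library of one group reached the other. Its log2 fold change was 2.25 (SE 0.39, adjusted p = 0.0132). With the replicate letter as a block this call ended (log2 fold change 2.22, adjusted p = 0.0772, within a range of 5.89e-10 to 0.0772 over 14 alternatives), while Nefl and Nefm were called in that fit as well.

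Neuronal markers moved with these 3 genes. Summed over the 8 pan-neuronal markers, the ES-astrocyte controls A to D held 1913, 3421, 2580 and 2941 CPM and the ES-motor neuron controls 5542, 5512, 6950 and 7588 CPM. All 8 markers had counts in both cell types, so that no defining neuronal marker was at 0 in the ES-astrocytes. How far neurons within the sorted eGFP-negative fraction contribute to the Nefl, Nefm and Ina values there was not tested.

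The other genes of the family gave no call in the controls. Vim encodes vimentin, the filament of mesenchymal cells, radial glia and immature astrocytes, and was at 587, 367, 754 and 394 CPM in ES-astrocytes, against 515, 494, 626 and 516 CPM in ES-motor neurons. The narrow ES-motor neuron range lay inside the wide ES-astrocyte range. Its log2 fold change of 0.06 (SE 0.37, adjusted p = 0.986) had a 95% interval from −0.74 to 0.87. Nes encodes nestin, the large filament protein of neural stem and progenitor cells. Nes stood at 17.4, 59.0, 25.1 and 9.06 CPM in ES-astrocytes against 2.71, 8.72, 0 and 5.72 CPM in ES-motor neurons. Every ES-motor neuron library was under every ES-astrocyte library, though only just and not without TMM scaling, and 1092 of all genes tested (10.7%) had control groups that did not overlap. Its log2 fold change of −2.50 (SE 1.07, adjusted p = 0.408) was not called.

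Prph, Nefh and Gfap were scarce. Prph, peripherin, was at 7.99, 0, 0 and 12.99 CPM in ES-astrocytes, against 14.5, 17.7, 15.4 and 0.477 CPM in ES-motor neurons. Its groups overlapped through replicate D, which was the highest ES-astrocyte and the lowest ES-motor neuron library, and the log2 fold change was 1.16 (SE 1.77, adjusted p = 0.918). Nefh, the heavy neurofilament subunit that comes late in axon maturation, had 0 counts in the 4 ES-astrocyte controls and 7, 14, 0 and 5 counts in the ES-motor neuron controls. It did not pass the filter, and the exact two-sided permutation test over the 8 control libraries gave p = 0.143, where 0.0286 is the smallest p that 4 against 4 allows. Gfap had 1 count in the 8 libraries, in ES-motor neuron control replicate B.

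Taken over all treatments, the same contrast asks what sets the cell types apart with the treatment held fixed, in 20 libraries of each. It called 5 of the 7 genes tested, Nefl, Nefm, Ina and Prph as higher and Nes as lower in ES-motor neurons, where 1972 of 13227 genes (14.9%) were called, 511 (3.86%) higher and 1461 (11%) lower. Without the filter on low counts 2820 of 28630 genes were called, 1016 of them higher, and the same 5 filament genes. The median log2 fold change of the 7 was 1.86 and that of all genes tested −0.21. The control libraries are part of this contrast, so it is no independent repeat of the first.

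Nefl ranged from 30.9 over a median of 139 to 278 CPM in ES-astrocytes, but from 674 over 1886 to 2688 CPM in ES-motor neurons. All 20 ES-motor neuron libraries were above all 20 ES-astrocyte libraries, the library of 6557 counts included, in which Nefl had 10 counts. That gave a log2 fold change of 3.71 (SE 0.18, adjusted p = 3.14e-21). The share of all genes tested that separate in this way over 20 libraries of each cell type was not counted. The same holds for Nefm and Ina below. Nefm reached from 17.8 over 65.4 to 269 CPM in ES-astrocytes, but from 269 over 787 to 1999.95 CPM in ES-motor neurons. The ranges met but did not cross, since the highest ES-astrocyte library, TGF-β2 replicate D, and the lowest ES-motor neuron library, with 4 counts, differed by a factor of 1.00, or of 1.51 without TMM scaling. The log2 fold change of Nefm was 3.43 (SE 0.25, adjusted p = 1.15e-15).

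Ina went from 176 over 285 to 810.3 CPM in ES-astrocytes, but from 404 over 1124 to 1683 CPM in ES-motor neurons. Of the 20 ES-motor neuron libraries 19 were above every ES-astrocyte library, and the remaining one was C1Q with C5 replicate A, with 6 counts. Without TMM scaling 13 of 20 were. Its log2 fold change was 1.83 (SE 0.16, adjusted p = 5.85e-13). Without the 9 shallow libraries all 11 ES-motor neuron libraries were above the ES-astrocytes (7 of 11 without TMM scaling), and Nefl, Nefm and Ina were called with log2 fold changes of 3.94, 3.76 and 2.09.

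Prph and Nes were called on fewer counts. Prph was found in 10 of 20 ES-astrocyte libraries, from 0 over 1.98 to 18.2 CPM, and in 18 of 20 ES-motor neuron libraries, from 0 over 19.7 to 70.8 CPM. The ranges overlapped, with 10 ES-motor neuron libraries above every ES-astrocyte library, and the log2 fold change was 2.37 (SE 0.78, adjusted p = 0.0241). Nes was found in all 20 ES-astrocyte libraries, from 7.58 over 21.4 to 59.0 CPM, and in 12 of 20 ES-motor neuron libraries, from 0 over 2.04 to 21.5 CPM. Of the ES-motor neuron libraries 15 lay below every ES-astrocyte library, and the log2 fold change was −2.32 (SE 0.52, adjusted p = 0.000662). Both calls ended without the shallow libraries, where Prph had a log2 fold change of 2.34 (adjusted p = 0.151) and Nes one of −1.72 (adjusted p = 0.0504). In the 11 ES-motor neuron libraries left, Nes was found in 10, at a median of 6.33 CPM, and 6 lay below every ES-astrocyte library. Over all 45 alternatives the adjusted p went from 0.0119 to 0.151 for Prph and from 1.45e-06 to 0.0504 for Nes.

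Progenitor markers also had a lower median in the ES-motor neurons. The 7 of them, all with counts in both cell types, summed to 173, 819 and 1631 CPM in ES-astrocytes, against 16.3, 205 and 859 CPM in ES-motor neurons, with the RNA-binding protein gene Msi1 the most abundant at means of 651 and 266 CPM. Fibroblast markers, which bear on Nes and Vim because mesenchymal cells make both proteins, summed to 36.8, 203 and 1119 CPM in ES-astrocytes, chiefly from Dcn at a mean of 220.4 CPM and with Postn at 0, and to 0, 0 and 5.90 CPM in ES-motor neurons, where Dcn led with a mean of 0.628 CPM and Col1a2, Lum and Postn were at 0. Of the 7 fibroblast genes 6 were detected in ES-astrocytes, 4 in ES-motor neurons. The part that progenitors or fibroblast-like cells take in the Nes and Vim levels was not tested.

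Vim and Nefh were tested over all treatments and not called. Vim spanned 347, 529 and 756 CPM in ES-astrocytes, against 67.4, 476 and 708 CPM in ES-motor neurons (lowest, median, highest), a log2 fold change of −0.21 (SE 0.14, adjusted p = 0.361) and a 95% interval from −0.50 to 0.07. The ranges nearly coincided, and the 1 very low ES-motor neuron value was a single count in the library of 6557. Nefh was found in 9 ES-astrocyte libraries, up to 11.1 CPM, and in 13 ES-motor neuron libraries, up to 16.5 CPM, with a log2 fold change of 1.86 (SE 0.99, adjusted p = 0.216).

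Gfap, the filament gene by which astrocytes are most often recognised, had no count in any of the 20 ES-astrocyte libraries, stimulated ones included. Together those libraries held 120368310 counts, and 3 counts of that total, about the upper 95% confidence limit for a count of 0, correspond to 0.0249 CPM before TMM scaling. The ES-motor neurons held 1 Gfap count in 66949971. Gfap could not be tested, and no ratio between the cell types is given. The paper reports GFAP protein in forskolin-treated ES-astrocytes by staining. Transcript and protein thus differ here, and the reason was not tested.

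Within each treatment Nefl, Nefm and Ina had the higher mean in ES-motor neurons. The ratio of the ES-motor neuron mean to the ES-astrocyte mean for Nefl was 14.6 in control, 12.4 with IL-1α and TNF-α, 14.8 with C1Q and C5, 10.8 with IL-1β and IL-6, and 13.1 with TGF-β2, and the groups did not overlap in any of the 5. Of the 13227 genes tested over all treatments, 8.93%, 8.15%, 7.3%, 6.9% and 9.35% had groups that did not overlap in these treatments. For Nefm the ratio was 9.91, 8.94, 16.6, 10.3 and 9.51 in the same order, again without overlap. For Ina it was 4.65, 3.14, 2.87, 3.12 and 4.17, with an overlap only in C1Q with C5. The Vim ratios of 1.02, 0.982, 0.767, 0.870 and 0.666 lay on both sides of 1, and its groups overlapped in all 5. Without TMM scaling they were 0.990, 1.10, 0.647, 0.975 and 0.567, with no overlap for TGF-β2. How many of all genes had groups without overlap on that scaling was not counted. These treatments lie on different plates, so the higher Nefl, Nefm and Ina means appeared on each plate.

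Expressed per kilobase of exon, the make-up of the filament transcripts can be compared between genes. In ES-motor neurons the summed CPM per kb of the 8 genes had a median of 1167 and in ES-astrocytes of 280.4. Nefl took a mean share of 47.1% of it in ES-motor neurons (SD 4.60, n = 20), Ina 30.6%, Nefm 12.7% and Vim 8.40%. In ES-astrocytes Vim took 41.5% (SD 8.35, n = 20), Ina 35.8%, Nefl 15.2%, Nefm 5.06% and Nes 1.36%. Prph, Nefh and Gfap were minor parts of it in both, Prph at 1.04% and 0.875% in ES-motor neurons and ES-astrocytes.

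On the length of all exons, the order of the levels per kb was steady in ES-motor neurons, where Nefl was first and Ina second in 20 of 20 libraries and Nefm came next in 16, with Vim in that place in the other 4. Vim was first in 13 of the ES-astrocyte libraries and Ina in 7. Nefl followed them in 19 of the ES-astrocyte libraries. Per kb, the median ratio of Nefl to Vim was 0.366 in ES-astrocytes against 6.12 in ES-motor neurons, and the ranges over libraries, 0.0695 to 0.687 and 3.17 to 14.03, were far apart. The ratio of Nefm to Nefl had medians of 0.279 and 0.250 and overlapped.

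**Figure D2:**
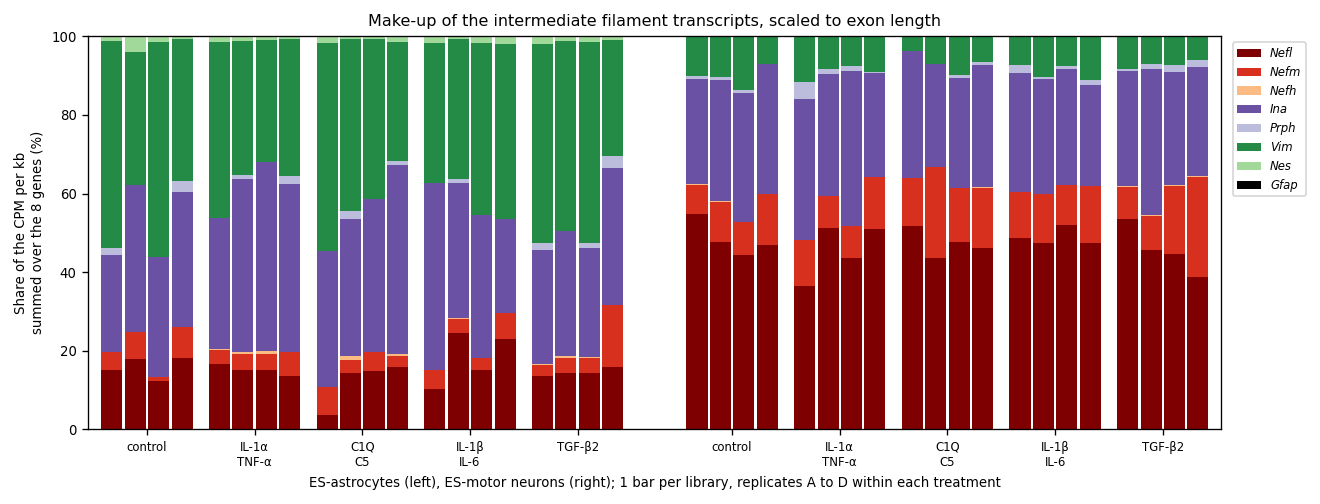
Share of each gene (vertical axis, percent) in the CPM per kb summed over the 8 genes, 1 bar per library, with ES-astrocytes on the left and ES-motor neurons on the right. Vim and Ina make up most of the ES-astrocyte bars, with mean shares of 41.5% and 35.8%, and Nefl and Ina most of the ES-motor neuron bars, with 47.1% and 30.6%.

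Lengths and strands set limits on these shares. In the GENCODE annotation of the GRCm38 build, Nefl and Nefm lie on opposite strands of chromosome 14, and the longer of the 2 Nefm transcripts runs across Nefl and shares 1108 exon bases with it, which is 32.8% of the Nefl exon length and 19.2% of that of Nefm. The other Nefm transcript ends 30.187 kb away from Nefl. Ina shares 456 exon bases, 14.1% of its length, with Nt5c2 on the opposite strand. The study's record and methods text do not state the build, annotation and strand setting behind the counts, so how reads from the shared bases were assigned is uncertain. The levels of Nefl, Nefm and Ina, and the correlation of Nefl with Nefm given below, carry the same limit. With the length of the longest transcript in place of all exons, the ES-motor neuron shares were 42.0% for Nefl, 17.5% for Nefm and 12.1% for Vim, and the ES-astrocyte shares were 52.0% for Vim and 28.0% for Ina. On that length Vim was first and Ina second in 20 of 20 ES-astrocyte libraries, so that the order of these neighbours depends on the length used. In ES-motor neurons it put Nefl first in 19 of 20 libraries and Ina second in 18. The ratios of Nefl to Vim and of Nefm to Nefl were taken on all exons only and depend on the length too. Vim is 4.743 kb on all exons and 2.926 kb on the longest transcript, Nefm 5.782 and 3.68 kb, and Nefl 3.38 kb on both.

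Each stimulus was then set against control, first in the ES-astrocytes that received it. The 4 comparisons share the same 4 control libraries. None of the filament genes tested, 6, 6, 5 and 6 of 8 for IL-1α with TNF-α, C1Q with C5, IL-1β with IL-6 and TGF-β2, was called by edgeR, and none had an unadjusted p under 0.05. Over all genes edgeR called 0 of 10444, 0 of 10865, 0 of 10240 and 0 of 10794 (0% in each), with 93, 106, 119 and 136 genes at an unadjusted p under 0.05. These were 0.89%, 0.976%, 1.16% and 1.26% of the genes tested, fewer than that threshold would mark among unchanged genes. The edgeR test was thus cautious here, and the lack of a call does not show a lack of change. DESeq2 called 25, 40, 56 and 58 genes and no filament gene among them.

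Ina had the smallest p of these, an unadjusted 0.0553 with IL-1α and TNF-α by edgeR. Against the control values of 188, 276, 284 and 255 CPM it measured 299.6, 307, 509 and 417 CPM with IL-1α and TNF-α in replicates A to D. All 4 stimulated libraries lay above all 4 controls, as was so in either direction for 196 of 10444 genes (1.88%), but the groups overlapped without TMM scaling. The log2 fold change was 0.66 (SE 0.31, 95% interval −0.02 to 1.33) with an adjusted p of 1.00. With C1Q and C5 Ina was at 278, 229.5, 286 and 810.3 CPM, and with IL-1β and IL-6 at 511, 314, 427 and 233 CPM. The C1Q with C5 mean rested on replicate D, both groups overlapped the control, and the log2 fold changes were 0.73 (SE 0.45) and 0.58 (SE 0.33). TGF-β2 gave 176, 252, 274 and 336 CPM and a log2 fold change of 0.10 (SE 0.32).

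None of the remaining genes gave a call in ES-astrocytes either. Nefl had log2 fold changes of 0.17, 0.06, 0.58 and 0.02 in the order IL-1α with TNF-α, C1Q with C5, IL-1β with IL-6 and TGF-β2, the largest from 116, 234, 186 and 233 CPM against 119 to 141 CPM in control. The C1Q with C5 value averages 30.9, 98.6, 114 and 278 CPM in replicates A to D, and was 0.39 without replicate A and −0.64 without replicate D. Nefm had 0.16, 0.12, 0.31 and 0.66, the last resting on TGF-β2 replicate D at 269 CPM beside 31.01, 54.7 and 65.6 CPM. Vim, which astrocytes are known to raise when they react to injury, had −0.10, 0.13, 0.22 and 0.09, with standard errors of 0.34, 0.39, 0.35 and 0.35. Nes had −0.50, −0.24, 0.23 and −0.37, with standard errors of 0.77, 0.90, 0.78 and 0.77, and each value changed sign under some alternative. The 95% intervals of the 4 Vim values reached from −0.84 at the lowest bound to 0.98 at the highest.

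Nefh appeared in stimulated ES-astrocytes and not in the controls. Its counts were 0 in all 4 control libraries, 85 over 3 libraries with IL-1α and TNF-α, 167 over 2 with C1Q and C5, 15 in 1 with IL-1β and IL-6, and 61 over 3 with TGF-β2. In each group at least 1 library was at 0, as in the controls, and the exact two-sided permutation p was 0.143, 0.429, 1 and 0.143. Prph was detected in 2 of 4 control libraries and in 2, 2, 1 and 3 of 4 libraries with the stimuli. Gfap had 0 counts throughout.

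ES-motor neurons on the stimulated ES-astrocytes were compared in the same way with those on unstimulated ones, again with shared controls. Of the 8 genes 4, 6, 6 and 5 were tested for IL-1α with TNF-α, C1Q with C5, IL-1β with IL-6 and TGF-β2, and edgeR called none of them, with none at an unadjusted p under 0.05. Among all genes edgeR called 0 of 4479, 0 of 7348, 0 of 8327 (0% in each) and 1 of 7947 (0.0126%), with 143, 322, 98 and 221 genes at an unadjusted p under 0.05. These were 3.19%, 4.38%, 1.18% and 2.78% of the genes tested, again fewer than that threshold would mark among unchanged genes. DESeq2 called 1, 0, 1 and 17 genes, again without a filament gene. The 1 gene that edgeR called with TGF-β2 was the homeobox gene Hoxa5 (log2 fold change 3.05, SE 0.44, adjusted p = 0.0103), which is named because it was seen to be the only call, and that call ended without the shallow libraries.

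Among the genes that passed the filter, Vim had the smallest p in ES-motor neurons, an unadjusted 0.0660 with TGF-β2 by edgeR. With TGF-β2 its level was 359.7, 323, 424 and 336 CPM in replicates A to D, against 515, 494, 626 and 516 CPM in control. All 4 libraries lay below all 4 controls, as groups did not overlap for 205 of 7947 genes (2.58%). Its log2 fold change was −0.60 (SE 0.31, 95% interval −1.24 to 0.04) with an adjusted p of 0.999. With the other stimuli, in the order given, Vim had log2 fold changes of −0.01, −0.17 and −0.01 and values that overlapped the control.

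Nefm was at 269, 1999.95, 1221 and 1350.3 CPM with C1Q and C5, against 467, 607, 465 and 1177 CPM in control. Of those libraries 3 exceeded every control and replicate A, the one with 6557 counts in all, was below every control on 4 counts. Without TMM scaling that library was at 610.0 CPM, above 3 of the 4 controls. The log2 fold change was 0.90 (SE 0.49, adjusted p = 0.997), and those with IL-1α and TNF-α, IL-1β and IL-6, and TGF-β2 were 0.14, 0.37 and 0.55. For TGF-β2 the Nefm values of 438, 501, 1223 and 1834 CPM spread widely within the group.

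Nefl and Ina had log2 fold changes near 0 in ES-motor neurons. In the same order of stimuli, Nefl had 0.06, 0.06, 0.14 and −0.19, with standard errors from 0.30 to 0.47, and Ina 0.21, 0.02, −0.00 and −0.13, with standard errors from 0.31 to 0.46. Where all 4 libraries were shallow, with IL-1α and TNF-α, Nefl was at 985, 1997, 1904 and 2137 CPM on 167, 927, 569 and 247 counts. Only replicate A of these fell below the control range of 1456 to 2486 CPM. With TGF-β2 the Nefl groups overlapped, but without TMM scaling all 4 libraries, at 1402 to 1539.5 CPM, were below the controls at 1574 to 2188 CPM. The share of all genes that separate in this comparison without TMM scaling was not counted.

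Among the scarcer genes, Prph was at 70.8, 28.0, 30.1 and 8.65 CPM with IL-1α and TNF-α on 12, 13, 9 and 1 counts, and the exact two-sided permutation p was 0.114. It was at 0, 0, 21.5 and 21.8 CPM with C1Q and C5, at 43.2, 11.3, 17.9 and 33.4 CPM with IL-1β and IL-6, and at 12.4, 25.6, 41.4 and 45.3 CPM with TGF-β2. Each group overlapped the control values of 14.5, 17.7, 15.4 and 0.477 CPM. The log2 fold changes of Prph were 0.23 (SE 1.10), 1.23 (SE 0.92) and 1.43 (SE 0.85) with these 3 stimuli, and none was called.

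Nefh had 26 counts in the ES-motor neuron controls, at 6.33, 0.714, 0 and 2.38 CPM. With IL-1α and TNF-α it had 1 count in 1 of 4 libraries and a lower mean than control, 0.539 against 2.36 CPM, and with C1Q and C5 it had 36 counts in 2 of 4 libraries and a mean of 4.85 CPM. The exact two-sided permutation p was 0.257 and 0.457. With IL-1β and IL-6 it was at 5.32, 0, 10.6 and 6.68 CPM and passed the filter (log2 fold change 1.42, SE 1.22, adjusted p = 1.00, edgeR). TGF-β2 gave 16.5, 4.45, 9.11 and 11.98 CPM on 83 counts in all. Of these libraries 3 exceeded every control, and the exact two-sided permutation p was 0.0571. Nes was detected in 1, 3, 2 and 3 of 4 libraries with the stimuli and 3 of 4 in control, and it passed the filter for C1Q with C5 alone (log2 fold change 1.49, SE 1.07, adjusted p = 0.997).

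**Figure D3:**
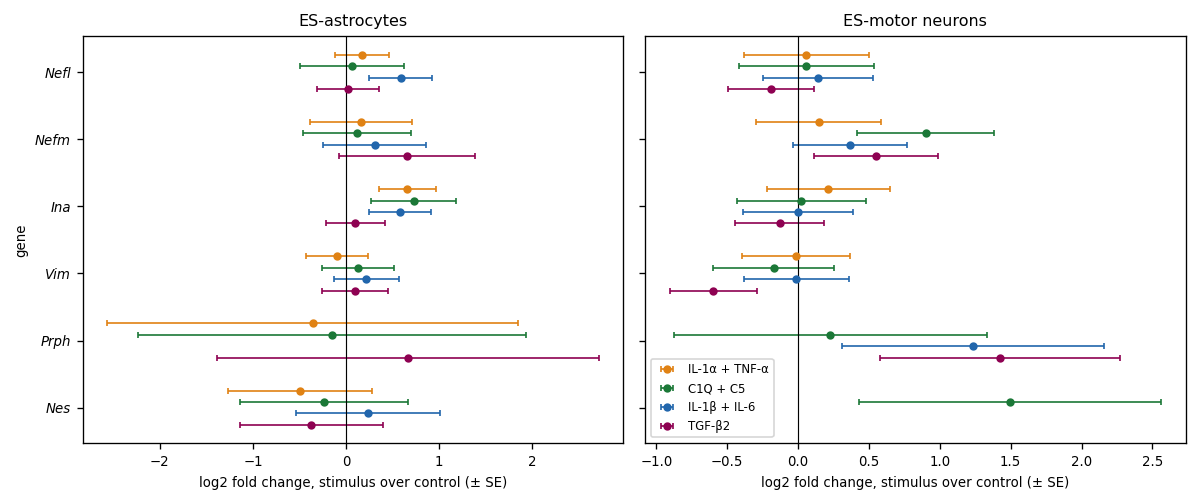
Log2 fold change of each stimulus over control (horizontal axes, points with bars of 1 standard error, 4 libraries a group) for 6 of the genes (vertical axis), in ES-astrocytes on the left and ES-motor neurons on the right, whose horizontal scales differ. A missing point means that the gene did not pass the filter on low counts in that comparison, and no point was called.

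Whether a stimulus acted differently on the cell types was asked with an interaction of treatment and cell type over all 40 libraries. edgeR called 0 of 13227 genes (0%), with 808 (6.11%) at an unadjusted p under 0.05, and DESeq2 called 1 gene, which was not a filament gene. None of the 7 filament genes tested was called. Nefh had an unadjusted p of 0.0309 and an adjusted p of 0.765, and the other 6 had adjusted p of 1.

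Levels of Nefl, Nefm and Ina ran together over the 31 libraries that were not shallow, 20 of ES-astrocytes, 11 of ES-motor neurons. Pearson's r of log2 CPM was 0.91 between Nefl and Nefm, 0.93 between Nefl and Ina, and 0.89 between Nefm and Ina. All points share the step between cell types. Within ES-astrocytes alone the same pairs had r of 0.16, 0.42 and 0.30, while within ES-motor neurons they had 0.35, 0.74 and 0.48. Prph had r of 0.53, 0.51 and 0.44 with Nefl, Nefm and Ina over the 31 libraries, but 0.16, 0.20 and −0.06 within ES-astrocytes and −0.43, −0.31 and −0.41 within ES-motor neurons. Nefh had 0.50, 0.37 and 0.51 with the same genes, then 0.24, −0.29 and 0.25 within ES-astrocytes and 0.12, −0.01 and 0.09 within ES-motor neurons. Vim and Nefl had r of −0.18 over the 31 libraries, 0.15 within ES-astrocytes and 0.78 within ES-motor neurons. Nes and Nefl had −0.60, 0.18 and 0.09 in that order, so that the sign turned within the cell types for both pairs. These are descriptions without a test, over libraries that also share batches and depth.

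For each gene the most similar patterns among 7975 other genes (7976 for Nefh) were listed by the same r over the 31 libraries. Nefl was nearest to Gm42537 (r = 0.942), Spp2 (0.938) and Uts2b (0.932), but within the cell types these r were between 0.0620 and 0.266. Nefm was nearest to Stmn2 (0.938), Dlc1 (0.925) and Nefl (0.910). Within ES-astrocytes Nefm had r of 0.628 with Stmn2 and 0.882 with Dlc1, while within ES-motor neurons it had 0.788 and 0.669. Ina was nearest to Nefl (0.926), Stmn2 (0.919) and Gap43 (0.905), a growth cone protein gene. Within the cell types Ina had r of 0.593 and 0.673 with Stmn2, and of 0.314 and 0.168 with Gap43, ES-astrocytes first.

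By r over the 31 libraries the other genes had looser neighbours, though not within the cell types. Prph was nearest to Gm2990 (0.737), Sema5a (0.732) and Crmp1 (0.697), and Nefh to Grb2 (0.709), Map2k4 (0.679) and Ric8a (0.653). Within the cell types these r were between 0.344 and 0.704 for Prph and between 0.513 and 0.739 for Nefh, above those of the Nefl neighbours. Nes was nearest to the kinetochore gene Cenph (0.821), Usp1 (0.772), a deubiquitinase gene, and Igfbp5 (0.755), with r between 0.250 and 0.410 within ES-astrocytes and between 0.639 and 0.839 within ES-motor neurons. Vim, which did not follow the cell types, was nearest to Hnrnpll (0.631) and Ube2d2a (0.595), with r between 0.537 and 0.729 within the cell types. Gfap has no pattern to compare with its single count.

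Other intermediate filament genes, 14 in a list of lamins, keratins and minor types, set the 8 in context. In the control cell types 5 of the 14 were tested and 0 called by edgeR, with 1 at an unadjusted p under 0.05, and DESeq2 called 1, Lmnb1, with 2 at an unadjusted p under 0.05. The 3 of smallest p were the lamin genes Lmnb1 (log2 fold change −2.71, SE 1.16) and Lmna (−1.61, SE 0.76), and Synm, which encodes synemin (1.52, SE 2.01). Over all treatments 8 were tested and 2 called, both lower in ES-motor neurons, beside 14.9% of all genes tested. Lmna, which encodes the A-type lamins of the nuclear envelope, was at 12.5, 56.9 and 232 CPM in ES-astrocytes, against 0, 18.3 and 60.6 CPM in ES-motor neurons (lowest, median, highest), for a log2 fold change of −1.92 (SE 0.37, adjusted p = 7.43e-05). Lmnb1 was at 3.39, 10.8 and 38.2 CPM against 0, 3.77 and 23.6 CPM, with a log2 fold change of −1.35 (SE 0.50, adjusted p = 0.0485). Krt7 and Krt19 had no counts in any library, Krt8 and Krt18 none in ES-motor neurons, and the muscle filament gene Des averaged 0.0697 CPM in ES-astrocytes.

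Among 15 partners of intermediate filaments, meaning crosslinkers, kinases, motors, chaperones and mRNA-binding proteins, 13 were tested in the control cell types and 2 called, beside 2.24% of all genes tested. Cryab, a small heat shock protein that chaperones vimentin and GFAP filaments, had a lower level in ES-motor neurons at a log2 fold change of −6.48 (SE 0.99, adjusted p = 0.0082), and the kinesin gene Kif5c was higher with 1.80 (SE 0.38, adjusted p = 0.0316). DESeq2 called 4, these and Cdk5r1 and Dst. Over all treatments 14 were tested and 4 called, beside 14.9% of all genes tested. Cryab was detected in 20 of 20 ES-astrocyte libraries but in 3 of 20 ES-motor neuron libraries, at medians of 91.0 and 0 CPM, and its log2 fold change was −7.13 (SE 0.59, adjusted p = 8.67e-14). Hspb1, another small heat shock protein gene, was lower too, at −3.47 (SE 0.90, adjusted p = 0.00328).

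The partners called as higher were Cdk5r1 and Kif5a. Cdk5r1, the activator of the neuronal kinase that phosphorylates neurofilament tails, had medians of 91.5 CPM in ES-astrocytes against 332 CPM in ES-motor neurons and a log2 fold change of 1.78 (SE 0.26, adjusted p = 3.37e-07). Kif5a, a motor that carries neurofilaments along axons, had medians of 18.6 and 59.9 CPM and a log2 fold change of 1.74 (SE 0.40, adjusted p = 0.00102). Kif5c, over all treatments, had a log2 fold change of 0.71 and did not pass the threshold on size. In ES-astrocytes it had log2 fold changes of 0.80, 1.18, 1.24 and 1.47 over the shared controls, in the order IL-1α with TNF-α, C1Q with C5, IL-1β with IL-6 and TGF-β2, with unadjusted p of 0.0491, 0.0450, 0.0109 and 0.00393 and adjusted p of 1.00 in each by edgeR. Dst, which encodes the cytoskeletal linker dystonin, had −1.15, −1.28, −0.93 and −0.94 in ES-motor neurons in the same order, with unadjusted p of 0.0183, 0.00529, 0.0590 and 0.0208 and adjusted p between 0.990 and 1.00 by edgeR. Both are given for all 4 stimuli after their values were seen. No gene of either list was called by edgeR in a stimulus comparison or in the interaction, with between 0 and 2 of each list at an unadjusted p under 0.05, and DESeq2 called no gene of either list in them either.

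Promoters were looked up for all 8 genes. The set of RefSeq promoters used, on the GRCm38.p6 build, held windows of 300 bases, 250 before the transcript start chosen by that set and 50 after it. That start can differ from the gene start in GENCODE. The windows of Vim and Gfap lie inside the annotated genes, which span 13573927 to 13582826 and 102887336 to 102900912. Positions below refer to the start of the set. It covered 5 of the 8 genes, Ina, Prph, Vim, Nes and Gfap. Nefl, Nefm and Nefh had no entry in that set, though all 3 are annotated protein-coding genes. The windows were searched on both strands for TATAAA (the TATA box, found in 13.6% of 32851 such windows), CCAAT (37.4%), GGGCGG (the GC box, 35.7%) and TGANTCA (the AP-1 motif, 7.81%), none of which overlapped another in these 5 windows. The sequences are shown for the 3 genes with an entry that were called over all treatments, Ina and Prph as higher and Nes as lower in ES-motor neurons, and for Vim, which was abundant in both cell types. Motif matches stand in capitals (CCGCCC is the GC box on the other strand, ATTGG the CCAAT box).
Ina, chr19:47014431-47014730, forward strand: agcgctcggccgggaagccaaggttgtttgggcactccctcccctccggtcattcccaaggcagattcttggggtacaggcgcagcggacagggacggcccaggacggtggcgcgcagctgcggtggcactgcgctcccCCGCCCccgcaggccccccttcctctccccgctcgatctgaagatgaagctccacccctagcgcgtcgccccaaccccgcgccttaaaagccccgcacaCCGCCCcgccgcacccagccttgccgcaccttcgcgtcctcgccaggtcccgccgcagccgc
Prph, chr15:99054924-99055223, forward strand: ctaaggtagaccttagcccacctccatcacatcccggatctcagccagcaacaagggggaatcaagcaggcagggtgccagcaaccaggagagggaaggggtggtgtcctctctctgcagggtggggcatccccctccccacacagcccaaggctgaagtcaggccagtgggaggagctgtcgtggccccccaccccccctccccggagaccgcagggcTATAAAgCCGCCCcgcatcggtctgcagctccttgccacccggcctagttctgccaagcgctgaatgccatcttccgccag
Vim, chr2:13574061-13574360, forward strand: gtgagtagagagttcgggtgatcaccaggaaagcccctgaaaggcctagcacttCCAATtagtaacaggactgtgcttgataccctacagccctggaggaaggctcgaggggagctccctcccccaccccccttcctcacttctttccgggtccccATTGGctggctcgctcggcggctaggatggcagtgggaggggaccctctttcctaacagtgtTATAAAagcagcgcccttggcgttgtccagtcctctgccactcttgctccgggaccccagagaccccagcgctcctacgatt
Nes, chr3:87970843-87971142, forward strand: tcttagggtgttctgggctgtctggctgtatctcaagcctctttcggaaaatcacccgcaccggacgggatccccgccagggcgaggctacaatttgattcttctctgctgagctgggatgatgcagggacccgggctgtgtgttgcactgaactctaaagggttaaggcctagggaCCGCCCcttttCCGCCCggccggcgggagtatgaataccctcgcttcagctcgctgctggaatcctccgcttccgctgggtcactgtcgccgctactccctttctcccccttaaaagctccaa

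The Ina window held 2 GC boxes on the reverse strand and no TATA box, and 71.7% of its bases were G or C, against a median of 52.7% over all windows. Prph carried a TATA box that begins 31 bases before the start and a GC box 1 base behind it. Vim carried a TATA box that begins 32 bases before the start and 2 CCAAT boxes, 1 on each strand, while Nes had, like Ina, 2 GC boxes and neither of the others. The Gfap window, on the reverse strand at chr11:102897151-102897450, held none of the 4 motifs. No AP-1 motif was found in the 5 windows. These matches describe letters in a window and not the binding of a factor.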

How the data were processed

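The authors deposited 1 table of raw read counts for 55487 Ensembl genes in 40 libraries of about 200 sorted cells each. They prepared polyadenylated RNA with a template-switching protocol, sequenced it in paired ends and mapped it with STAR; the study states no STAR version, counting tool, strand setting, build or annotation for it. A sample sheet by the authors gave plate index and second index primer. Total counts per library ran from 6557 to 19717324.

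Gene names came from GENCODE, which named 55141 of the 55487 genes; the other 346 held 0.133% of all counts. Each comparison was fitted over all genes with edgeR 4.0.16 in R 4.3.3 (filterByExpr, TMM, quasi-likelihood F test with robust fitting, 95% intervals on its degrees of freedom), with Benjamini-Hochberg adjustment over every gene tested; a gene was called at an adjusted p of at most 0.05 and, outside the interaction, an absolute log2 fold change over 1. CPM used TMM factors over all 40 libraries. Genes that failed the filter got an exact two-sided permutation test (scipy 1.17.1) on CPM. Correlations used log2 of CPM plus 1. The fit was tested on simulated data before use.

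The alternatives were DESeq2 1.42.0, RLE factors, no filter, the replicate letter as a block, all 40 libraries in one fit, no shallow libraries, the index primer as a term, each library left out in turn, CPM without TMM, and the longest transcript as gene length.

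The named genes were all 8 filament genes, up to 3 genes of most similar pattern to each, and, from the lists of other intermediate filament genes and of filament partners, those called between cell types or otherwise the 3 of smallest p. Beside this rule, Krt7, Krt8, Krt18, Krt19 and Des were named for absent or scarce counts, and Dst for its unadjusted p in stimulus comparisons. The stimulus values of Kif5c were given for the same reason. The filament genes and all lists, markers included, were chosen with earlier results of these data known.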

Additional observations from a re-analysis of the deposited data

Results flagged for a closer look

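Of 70 sets of 4 replicate values of a filament gene that had any spread, 12 held a library whose gap to its nearest neighbour exceeded Dixon's 95% critical value relative to the range of the set. Chance marks about 1 set in 20, and sets of mostly 0 are marked whenever 1 library has a count.

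Among the abundant genes, Nefl in ES-motor neurons with IL-1β and IL-6 was at 2688 CPM in replicate C, beside 1804 to 1897 CPM in the others. Nefm reached 960.3 CPM in ES-motor neuron IL-1α with TNF-α replicate D, on 111 counts, beside 541 to 609 CPM. Nefm was at 269 CPM in ES-astrocyte TGF-β2 replicate D, beside 31.01 to 65.6 CPM. Ina stood at 1683 CPM in ES-motor neuron control replicate D, beside 925 to 1033 CPM. In ES-astrocytes with C1Q and C5, Ina stood at 810.3 CPM in replicate D, beside 229.5 to 286 CPM. Vim was at 626 CPM in ES-motor neuron control replicate C, a shallow library, beside 494 to 516 CPM.

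The other 6 sets were of genes with few counts. Nefh was at 2.15 CPM in ES-motor neuron IL-1α with TNF-α replicate B, on 1 count, and at 3.02 CPM in ES-astrocyte IL-1β with IL-6 replicate B, on 15 counts, with 0 in the other libraries of each group. Prph was at 5.64 CPM in that same ES-astrocyte library, on 28 counts, and at 0 in the others. Nes was at 5.90 CPM in ES-motor neuron IL-1α with TNF-α replicate A, on 1 count, and at 0 in the others. With IL-1β and IL-6, ES-motor neuron replicate A had 6.33 CPM of Nes, beside 0 to 0.597 CPM. Gfap was at 0.0510 CPM in ES-motor neuron control replicate B, on 1 count, and at 0 in the others.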

How the results depend on the processing

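Across the alternatives, 267 fits concerned a filament gene that was called, of which 264 kept direction and call and 3 lost the call: Ina in the control cell types with the replicate letter as a block, and Prph and Nes over all treatments without the shallow libraries, where 3 filament genes were called in place of 5. Of 1076 fits of filament genes that were not called, 0 became a call, by edgeR or DESeq2, and 79 changed sign. Called filament genes stayed at 3 in the controls and 5 over all treatments whichever library was left out. Such refits with 1 library left out make up most of the 267, and the 3 lost calls came from other changes. The 264 therefore overstate how many separate changes of method were tried. The replicate letters share little, since deviations of libraries of 1 letter correlated between −0.22 and 0.39, so the block is an alternative only.

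Counts over all genes moved more, and the cause was not tested. For the control cell types the 228 genes called became 767 with DESeq2, 41 with the replicate block, 433 with all 40 libraries in one fit and 81 without the shallow library; leaving out 1 library gave 72 (without ES-motor neuron replicate B) to 401 (without ES-astrocyte replicate A), and each of the 8 moved it by over 1.5 times. For the interaction, where edgeR called 0, DESeq2 and edgeR without a filter gave 1 each and leaving out 1 library gave 0 to 1, with 1 without ES-astrocyte IL-1α with TNF-α replicate B, ES-astrocyte IL-1β with IL-6 replicates B or D, ES-motor neuron IL-1α with TNF-α replicate C or ES-motor neuron control replicate D.

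For ES-astrocytes, also at 0, IL-1α with TNF-α gave 25 with DESeq2 and 2 without a filter, C1Q with C5 gave 40 with DESeq2 and 2 in one fit, IL-1β with IL-6 gave 56 and 2, and TGF-β2 gave 58 with DESeq2. For ES-motor neurons, IL-1α with TNF-α gave 1 with DESeq2 and 1 without a filter, C1Q with C5 gave 0 to 2 with 1 library left out (2 without control replicate D), and IL-1β with IL-6 gave 1 with DESeq2. The 1 gene called with TGF-β2 became 17 with DESeq2, 5 without a filter, 4 with the replicate block, 0 without the shallow libraries, 3 with the index primer as a term, and 0 to 2 with 1 library left out (0 without control replicate C or TGF-β2 replicates A or D, 2 without control replicates A, B or D).

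Without TMM factors 3 of 80 group levels moved by more than 1 SD, and without shallow libraries 0 of 32. The longest transcript moved 5 of 16 shares. No fit without shallow libraries exists for IL-1α with TNF-α in ES-motor neurons, where all 4 are shallow; in the interaction that fit tested the other 3 stimuli. Depth limits the scarce genes most, since 3 counts range from 0.153 to 202 CPM over the libraries.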

Other observations

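Markers of microglia and of pluripotent cells were scarce. The 6 microglia markers summed to at most 11.8 and 21.8 CPM in ES-astrocytes and ES-motor neurons, nearly all from Csf1r, with Aif1, P2ry12, Ptprc and Tyrobp at 0 in both. Of the 5 pluripotency markers Pou5f1 and Zfp42 were at 0 in both, and the sums reached 1.35 CPM in ES-astrocytes, from Nanog, and 4.13 CPM in ES-motor neurons, mostly from Esrrb.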
